A study of Rattus norvegicus with 18 samples.

Results

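The collagen genes were all genes whose platform symbol reads Col, a number, the letter a and a number, such as Col1a1. In all, 42 of the 22089 genes that had a transcript cluster to themselves met this rule. A transcript cluster is the set of array probes designed for one gene's transcripts, and the brightest cluster stood for the 4 collagen genes that had more than 1. By class, 11 were fibrillar collagens, 5 were chains of type IV collagen of basement membranes, 6 were chains of type VI collagen and 9 were fibril-associated collagens. The others were 3 short-chain network collagens, 2 multiplexins, 4 transmembrane collagens and 2 of no such class.

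Total RNA of whole kidney from Sprague-Dawley (SD) rats was hybridised to Affymetrix arrays, and each value below is a log2 signal as deposited. The 6 groups were kidneys of rats given normal saline for 1 day, 6 weeks or 12 weeks and kidneys of rats given CdCl2 (cadmium chloride) for 1 day, 6 weeks or 12 weeks. Each group held 3 arrays, which the labels call biological replicates without saying whether they are separate animals or that a number pairs them. The p-values therefore measure the spread between these arrays, which may in part be technical. Dose, route, sex and age are not given in the sources used here, so the time of exposure and the age of the rats cannot be told apart in comparisons between times.

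Collagens are secreted proteins built of chains wound into a helix. Fibrillar types form the tensile fibres of the interstitium, type IV forms the sheet-like network of basement membranes, and type VI forms beaded filaments around cells. In the kidney, interstitial fibroblasts and pericytes are the usual makers of fibrillar collagen, and podocytes make the mature type IV network of the glomerular filter.

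The 18 arrays had medians between 5.28 and 5.40 over all genes, and any pair of arrays correlated between 0.979 and 0.995 across genes. Some arrays were the highest of all for several collagen genes. The third 6-week saline array was so for 10 of the 42, and the third 1-day cadmium array for 7. The third replicate of saline at 1 day was the highest of the 18 arrays for 12 of the 42 collagen genes, among them Col1a1, Col1a2, Col3a1, Col4a2 and Col4a5. It also had the highest mean of the 8 fibroblast and pericyte markers (8.89) and of the 5 smooth muscle markers (9.83). The results whose call or direction changed when it was left out are also given without it.

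Of the 42 genes, 24 had a mean signal above a background level of 4.20, under which 95% of 1271 receptor genes for odours and pheromones lay, most of which kidney is not known to use. That share compares with 63.73% of all genes. The 24 comprised 7 of 11 fibrillar, 5 of 5 type IV, 5 of 6 type VI, 2 of 9 fibril-associated, 1 of 3 short-chain, 2 of 2 multiplexin and 2 of 4 transmembrane genes. The 18 genes at or below background were Col2a1, Col5a3, Col6a4, Col8a1, Col9a1, Col9a2, Col9a3, Col10a1, Col11a2, Col16a1, Col19a1, Col20a1, Col22a1, Col23a1, Col24a1, Col25a1, Col26a1 and Col28a1. Their array values lay between 3.36 and 4.46, and none passed the test in any comparison. Several of these are known as collagens of cartilage, among them Col2a1, Col9a1 to Col9a3, Col10a1 and Col11a2.

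Most of the differences that passed the test were between times. Saline kidneys at 6 and 12 weeks had lower signals of Col1a1, Col1a2 and Col3a1 than saline kidneys at 1 day, with log2 differences from -3.17 to -2.53, and lower signals of 2 type IV chains and 1 type VI chain in at least one of these comparisons. In cadmium against saline, 0 of 42 collagen genes passed the test at 1 day or at 6 weeks, and 1 of 42, Col6a6, passed as higher at 12 weeks. The test throughout was limma's moderated test on 6 group means over all 22089 genes, with Benjamini-Hochberg adjustment and a threshold of 0.05. Differences are given in log2 units of the deposited scale and are not calibrated against known amounts of RNA.

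Col1a1 and Col1a2 encode the chains of type I collagen, the main fibre of scar and interstitium, and Col3a1 encodes type III collagen, which assembles with it. For Col1a1, the saline arrays read 9.29, 8.67 and 11.38 at 1 day, 6.52, 6.80 and 6.60 at 6 weeks, and 6.77, 6.63 and 6.40 at 12 weeks. Every 1-day array was above every later one, and the 6-week and 12-week arrays overlapped. The 6-week mean was lower than the 1-day mean by a log2 difference of -3.14 (standard error 0.49, adjusted p = 0.0139), and the 12-week mean by -3.17 (standard error 0.49, adjusted p = 0.0166). Both comparisons use the same 1-day saline arrays. Their standard errors use 1 spread pooled over all 6 groups, although the groups spread unequally. The SD of Col1a1 was 1.421 in saline at 1 day, 0.145 at 6 weeks and 0.187 at 12 weeks.

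Col1a2 read 9.76, 8.98 and 11.47 at 1 day of saline, 7.58, 7.64 and 7.33 at 6 weeks, and 7.46, 7.44 and 7.55 at 12 weeks. Col3a1 read 8.70, 8.27 and 10.70, then 6.58, 6.86 and 6.64, then 6.42, 6.71 and 6.40 at the same times. For these genes too, the lowest 1-day array was above the highest later array. Col1a2 changed by -2.56 at 6 weeks (standard error 0.43, adjusted p = 0.0176) and by -2.59 at 12 weeks (standard error 0.43, adjusted p = 0.0222). Col3a1 changed by -2.53 at 6 weeks (standard error 0.43, adjusted p = 0.0176) and by -2.72 at 12 weeks (standard error 0.43, adjusted p = 0.0166).

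**Figure D1:**
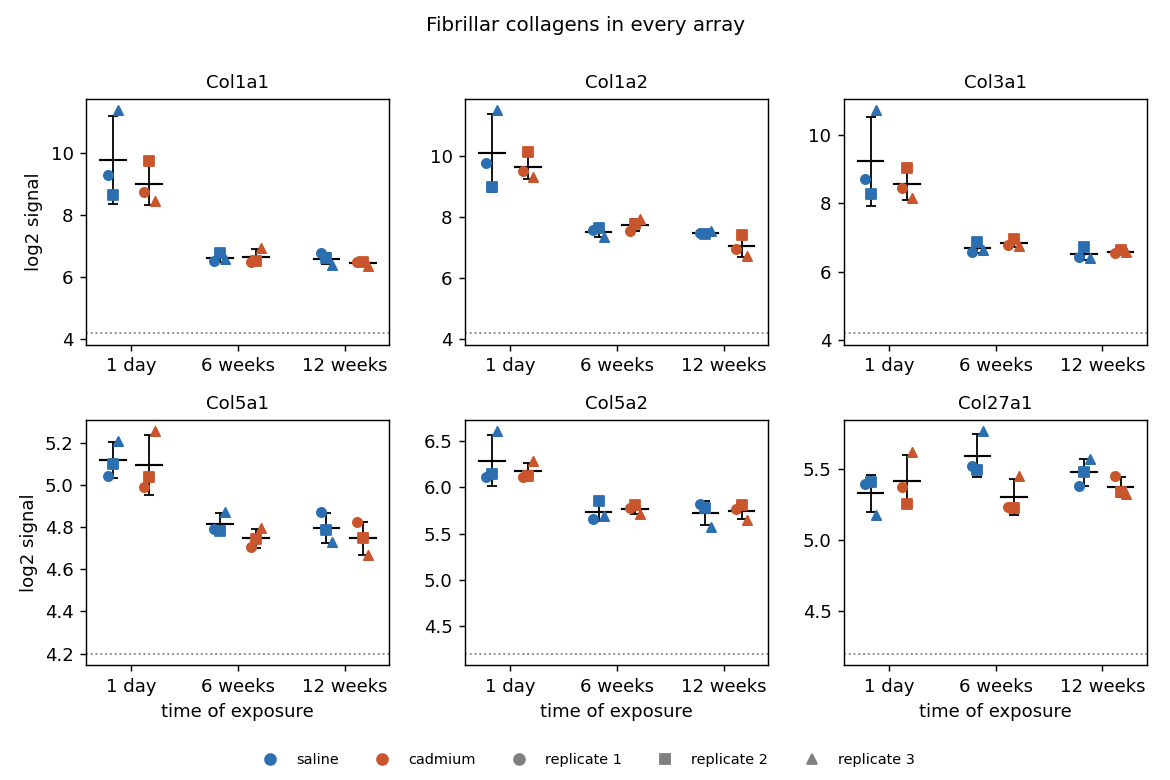
Log2 signal (y axis) of 6 fibrillar collagen genes in each of the 18 arrays by time of exposure (x axis), saline in blue and cadmium in orange, with replicates as separate symbols, group mean and SD as bars and the background level as a dotted line. The 1-day arrays of Col1a1 lie between 8.48 and 11.38, above all later arrays, which reach at most 6.94.

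Leaving out the third 1-day saline array, the highest for all 3 genes, kept the 6-week and 12-week calls of Col1a1, Col1a2 and Col3a1, and the Col1a1 differences were then -2.34 and -2.37. The calls were instead lost when a later array was left out. Without the first or the third 6-week saline array the adjusted p of Col1a1 at 6 weeks was 0.071 or 0.0739, while the difference was -3.08 or -3.12. Without the second or the third 12-week saline array its adjusted p at 12 weeks was 0.0797 or 0.0705. Col1a2 and Col3a1 lost the 6-week call without any of the 6-week arrays (adjusted p = 0.0519 to 0.102) and the 12-week call without the second or the third 12-week array (adjusted p = 0.0705 to 0.114). With the replicate block Col1a2 did not pass at 12 weeks (adjusted p = 0.0556).

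The 4 remaining fibrillar genes above background moved less. Col5a1 and Col5a2 encode chains of type V collagen, which starts fibrils, and they differed between saline at 6 weeks and 1 day by -0.30 (standard error 0.08, adjusted p = 0.145) and -0.55 (standard error 0.12, adjusted p = 0.0579). Col11a1 differed by -0.15 (standard error 0.09, adjusted p = 0.551) and Col27a1 by 0.27 (standard error 0.11, adjusted p = 0.368). None of these passed the test, although all 6 arrays of 1 day were above all 12 later arrays for Col5a1, Col5a2 and Col11a1. For Col11a1 that gap was narrow, since its lowest 1-day array read 4.61 and its highest later array 4.60.

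Cadmium kidneys fell with time in the same genes. Col1a1 read 8.75, 9.76 and 8.48 in cadmium arrays at 1 day, 6.51, 6.53 and 6.94 at 6 weeks, and 6.50, 6.50 and 6.38 at 12 weeks. Col1a2 read 9.51, 10.10 and 9.31, then 7.52, 7.76 and 7.92, then 6.96, 7.42 and 6.72. Col3a1 read 8.45, 9.03 and 8.15, then 6.78, 6.94 and 6.75, then 6.55, 6.62 and 6.57. In all 3 genes the 1-day arrays again lay above every later array of the group. Between 1 day and 12 weeks of cadmium, Col1a1 changed by -2.53 (standard error 0.49, adjusted p = 0.0273), Col1a2 by -2.60 (standard error 0.43, adjusted p = 0.0127) and Col3a1 by -1.97 (standard error 0.43, adjusted p = 0.0487). Col1a1 and Col3a1 did not pass with the replicate block, with the proximal tubule level as a covariate, or without the first or second 1-day or any 12-week cadmium array, and Col1a2 did not pass without the second 1-day array. Between 1 day and 6 weeks the differences were -2.34, -1.91 and -1.72, and none of them passed (adjusted p = 0.119, 0.157 and 0.23).

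Type I and type III genes were compared from array to array. With group means removed, Col1a1 and Col1a2 correlated over the 18 arrays at a Pearson r of 0.943 (exact permutation within groups, two-sided p = 0.00229, adjusted over 9 gene pairs 0.0103). Their Spearman rho was 0.785 (exact permutation p = 0.00592, adjusted 0.0266), and r was 0.771 without replicates 2 and 3 of 1-day saline. In these arrays the deviation of Col1a1 from its group mean lay farthest from the median deviation. Group means were not computed again after arrays were left out of a correlation. For Col1a1 with Col3a1, r was 0.959 (exact permutation p = 0.00958, adjusted 0.0287) and rho 0.740 (exact permutation p = 0.0336, adjusted 0.0521), and r was 0.836 without those arrays. Col1a1 and Col4a1, from different networks, had an r of 0.113 (exact permutation p = 0.789, adjusted 0.789) and a rho of 0.131 (exact permutation p = 0.653, adjusted 0.653), with r at 0.069 without those arrays.

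The upstream sequence of Col1a2 is shown because it is the only type I chain with one in the RefSeq table used here (GRCr8), and because it carries letters that match known promoter motifs. These are the 100 bases of its 250-base upstream window that lie farthest from the annotated start, on the plus strand at chr4:33518307-33518406. Capitals mark ATTGG, which is CCAAT read on the other strand, and TATAAA. Both lie in this far part of the window and not next to the annotated start.
Col1a2: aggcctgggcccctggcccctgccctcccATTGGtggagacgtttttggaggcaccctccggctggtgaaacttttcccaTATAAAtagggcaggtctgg
CCAAT on either strand occurred in 34.02% of the 33469 promoter windows of all genes and in 12 of the 36 collagen windows. TATAAA on the gene's own strand occurred in 8.06% of all windows and in 4 of the 36. These are matches of letters, and the arrays say nothing about binding there.

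Type IV collagen showed a smaller change with time, and only some of its chains passed the test. Col4a1 and Col4a2 encode the chains found in nearly all basement membranes, while Col4a3, Col4a4 and Col4a5 encode those of the mature glomerular filter and some tubules. Their genes lie in pairs that are transcribed away from each other, so each pair shares its upstream sequence. The sequences between the Col4a1 and Col4a2 starts and upstream of both Col4a3 and Col4a4 are shown, from RefSeq (GRCr8), to set this beside the chain pairs' values. In GRCr8 the annotated starts of Col4a1 (plus strand) and Col4a2 (minus strand) are separated by 76 bases, at chr16:84885521-84885596, and those of Col4a3 and Col4a4 by 412 bases. Of the latter, the 88 bases at chr9:91323740-91323827 lie in the upstream windows of both genes. Both are printed on the plus strand, and the capitals mark CCGCCC, which is the GC box GGGCGG read on the other strand.
Col4a1-Col4a2: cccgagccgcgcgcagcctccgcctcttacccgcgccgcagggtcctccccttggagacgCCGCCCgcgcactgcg
Col4a3-Col4a4: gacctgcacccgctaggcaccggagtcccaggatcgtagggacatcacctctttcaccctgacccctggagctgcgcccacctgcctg
GGGCGG on either strand occurred in 30.47% of all 33469 windows and in 18 of the 36 collagen windows. The Col4a3-Col4a4 stretch holds none of these motifs, which says only that these letters are not in it.

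Col4a2 read 7.47, 7.79 and 8.09 in saline arrays at 1 day, 6.81, 6.87 and 6.70 at 6 weeks, and 7.58, 7.28 and 6.96 at 12 weeks. The 6-week arrays lay below all 1-day arrays, and the 12-week arrays overlapped with those of 1 day. The cadmium arrays of Col4a2 read 7.71, 7.71 and 7.93, then 6.68, 6.89 and 6.81, then 7.21, 6.94 and 7.07, so both later groups lay below the 1-day group. The 6-week difference from 1 day was -0.99 in saline (standard error 0.16, adjusted p = 0.0148) and -0.99 in cadmium (standard error 0.16, adjusted p = 0.0263). The saline call was lost without replicate 3 of 1 day or replicate 1 or 3 of 6 weeks, and the cadmium call with the replicate block (adjusted p = 0.0737) or without any array of the groups compared. Without saline replicate 3 of 1 day the difference was -0.84 (adjusted p = 0.0756), and over all alternatives the differences lay between -1.15 and -0.84 in saline and between -1.04 and -0.92 in cadmium.

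Col4a1, its partner, read 7.35, 7.90 and 7.97 at 1 day of saline, 6.65, 7.05 and 6.84 at 6 weeks, and 7.90, 7.30 and 6.86 at 12 weeks. With cadmium, Col4a1 read 7.86, 7.60 and 8.10, then 6.33, 6.92 and 6.60, then 7.26, 6.72 and 7.10. Its 6-week values lay below those of 1 day in both treatments, but the differences of -0.89 in saline (standard error 0.25, adjusted p = 0.168) and -1.24 in cadmium (standard error 0.25, adjusted p = 0.102) did not pass the test. The chains followed each other closely: with group means removed, r was 0.894 (exact permutation p = 0.000257, adjusted 0.00231) and rho 0.880 (exact permutation p = 0.0006, adjusted 0.0054). Without replicates 1 and 3 of 12-week saline, r was 0.824.

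Col4a5 read 6.32, 6.18 and 6.52 in saline arrays at 1 day, 5.82, 5.85 and 5.77 at 6 weeks, and 5.78, 5.90 and 5.80 at 12 weeks. Under cadmium, the values were 6.18, 6.44 and 6.50, then 5.75, 5.78 and 5.72, then 6.05, 5.81 and 5.94. No later array reached the lowest 1-day array. The gene fell with time in saline at 6 weeks (-0.53, standard error 0.10, adjusted p = 0.028) and at 12 weeks (-0.51, standard error 0.10, adjusted p = 0.0446), and in cadmium at 6 weeks (-0.63, standard error 0.10, adjusted p = 0.024). In cadmium at 12 weeks the difference was -0.44 (standard error 0.10, adjusted p = 0.0563). Without saline replicate 3 of 1 day, neither saline difference passed, at -0.44 (adjusted p = 0.176) and -0.42 (adjusted p = 0.229), and both were also lost without replicate 1 of 1 day or any later array compared, with the replicate block (adjusted p = 0.0633 and 0.0891) and with quantile normalization (adjusted p = 0.0544 and 0.0595). The cadmium call at 6 weeks was kept without replicate 1 of 1 day and lost without any of the other 5 arrays compared.

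Col4a3 and Col4a4, chains of the same mature network as Col4a5, had no called difference between times, with 0.01 and 0.35 in saline at 6 weeks against 1 day (adjusted p = 0.994 and 0.725). Col4a3 read 8.26, 8.65 and 8.46 at 1 day of saline, 8.40, 8.60 and 8.41 at 6 weeks, and 8.60, 9.14 and 9.80 at 12 weeks. In cadmium arrays it read 8.60, 8.53 and 9.64, then 7.95, 7.76 and 8.99, then 9.65, 7.63 and 8.93. Each cadmium group overlapped with the saline group of its time, and the 12-week cadmium arrays spread from 7.63 to 9.65. The values of Col4a4 are given with the 12-week comparison of cadmium and saline. The array-to-array r of Col4a3 and Col4a4 was 0.673 (exact permutation p = 0.0371, adjusted 0.0557), rho 0.620 (exact permutation p = 0.0434, adjusted 0.0557), and r was 0.565 without the first and second 12-week cadmium arrays.

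**Figure D2:**
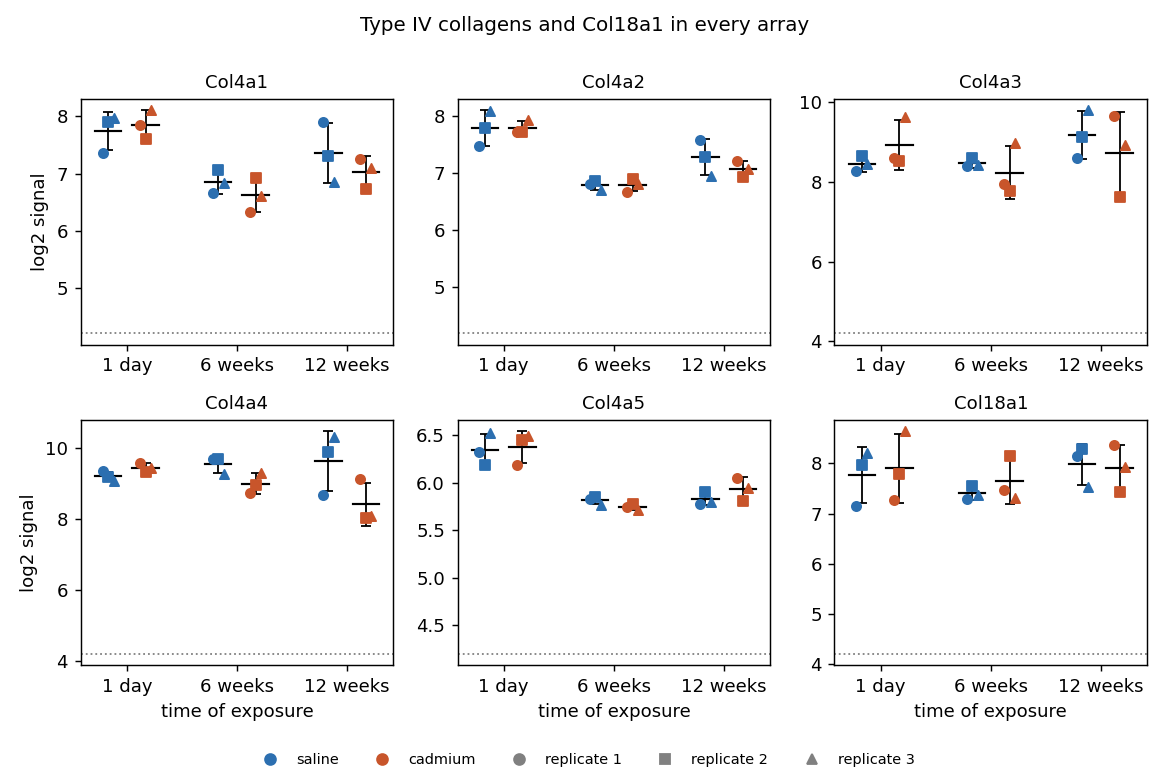
Log2 signal (y axis) of the 5 type IV collagen genes and Col18a1 in each of the 18 arrays by time of exposure (x axis), saline in blue and cadmium in orange, with replicates as separate symbols, group mean and SD as bars and the background level as a dotted line. Col4a5 lies lower in all 12 later arrays than in the 6 arrays of 1 day, while Col4a3 and Col4a4 spread most at 12 weeks.

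Among type VI chains, Col6a1 and Col6a2 are obligate partners and Col6a3 supplies the long chain that joins them, while Col6a5 and Col6a6 encode chains that can take its place. Col6a2 read 5.77, 5.93 and 6.38 in saline arrays at 1 day, 5.57, 5.20 and 5.55 at 6 weeks, and 5.30, 5.27 and 5.22 at 12 weeks. The cadmium arrays of Col6a2 read 6.07, 5.76 and 5.91, then 5.14, 5.34 and 5.45, then 5.44, 5.30 and 5.25. All 1-day arrays were above all later ones, and the 12-week difference in saline was -0.77 (standard error 0.15, adjusted p = 0.0431). Without saline replicate 3 of 1 day it was -0.59 (adjusted p = 0.185), and of the 6 arrays compared only leaving out replicate 1 of 1 day kept the call (adjusted p = 0.0305). With the replicate block the adjusted p was 0.0666, and with quantile normalization 0.0521.

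Col6a1 read 6.22, 5.89 and 6.85 in saline at 1 day, 5.96, 5.65 and 5.72 at 6 weeks, and 5.62, 5.70 and 5.64 at 12 weeks. With cadmium, Col6a1 read 6.53, 6.30 and 5.97, then 5.51, 5.78 and 5.97, then 5.72, 5.86 and 5.43. Its differences between times did not pass the test, with -0.55 in saline and -0.52 in cadmium at 6 weeks against 1 day (standard error 0.21 each). The array-to-array r of Col6a1 and Col6a2 was 0.714 (exact permutation p = 0.0347, adjusted 0.0557), rho was 0.728 (exact permutation p = 0.0142, adjusted 0.0319), and r was 0.587 without replicates 2 and 3 of 1-day saline.

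Col6a3 read 9.51, 9.10 and 9.94 in saline at 1 day, 8.80, 8.64 and 8.61 at 6 weeks, and 8.88, 8.33 and 8.51 at 12 weeks. In cadmium arrays it read 10.01, 9.24 and 9.33, then 7.55, 8.13 and 8.39, then 8.08, 8.06 and 7.31. The 1-day arrays were above all later arrays in both treatments, and the later cadmium arrays were below the later saline arrays of the same time. The fall with time passed in cadmium at 12 weeks (-1.71, standard error 0.28, adjusted p = 0.0122). The same contrast in saline was -0.94 (standard error 0.28, adjusted p = 0.26). The difference between these changes by limma was -0.77 and did not pass the threshold (standard error 0.40, limma adjusted p = 1). Without the first 1-day cadmium array, the fall in cadmium was -1.47 (adjusted p = 0.0559).

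Col6a6 went the other way. It read 7.28, 6.48 and 5.85 in saline arrays at 1 day, 7.35, 7.11 and 7.23 at 6 weeks, and 7.06, 7.59 and 6.50 at 12 weeks. The cadmium arrays of Col6a6 read 6.50, 6.17 and 6.36, then 7.21, 8.06 and 7.68, then 9.46, 8.98 and 8.66. Saline groups overlapped at 1 day and 12 weeks, whereas in cadmium arrays each time lay above the earlier one without overlap. Between 1 day and 12 weeks of cadmium, Col6a6 rose by 2.69 (standard error 0.34, adjusted p = 0.00143), and in saline the difference was 0.51 (standard error 0.34, adjusted p = 0.75). The rise in cadmium remained past the threshold in each leave-one-out fit.

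**Figure D3:**
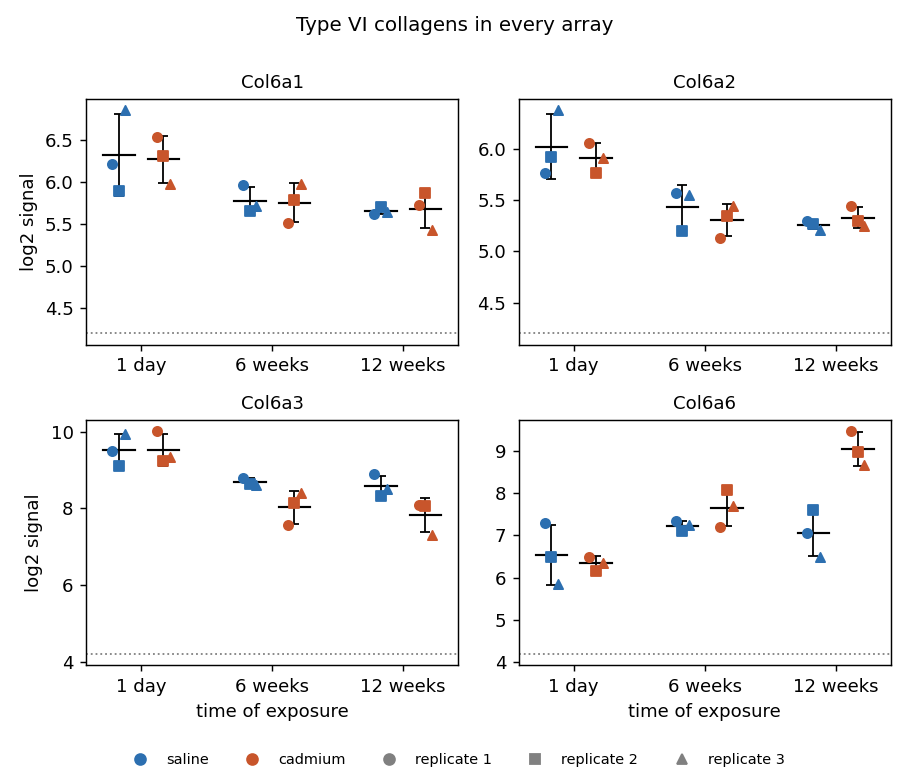
Log2 signal (y axis) of the type VI genes Col6a1, Col6a2, Col6a3 and Col6a6 in each of the 18 arrays by time of exposure (x axis), saline in blue and cadmium in orange, with replicates as separate symbols, group mean and SD as bars and the background level as a dotted line. The 12-week cadmium arrays of Col6a6 lie between 8.66 and 9.46, above the 12-week saline arrays, which lie between 6.50 and 7.59.

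The multiplexins Col15a1 and Col18a1 encode collagens of basement membrane zones that carry sugar chains, and Col18a1 is the source of endostatin. Col15a1 read 5.93, 6.05 and 7.32 in saline arrays at 1 day, 5.23, 5.16 and 5.44 at 6 weeks, and 5.34, 5.27 and 5.04 at 12 weeks. The cadmium arrays of Col15a1 read 5.65, 6.30 and 6.68, then 5.33, 5.39 and 5.25, then 5.21, 5.17 and 5.10. All 1-day arrays were above all later arrays, but the 6-week and 12-week differences in saline, -1.16 and -1.22 (standard error 0.30 each), did not pass (adjusted p = 0.125 and 0.137).

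Col18a1 showed no such order. It read 7.14, 7.97 and 8.20 in saline at 1 day, 7.30, 7.54 and 7.38 at 6 weeks, and 8.14, 8.29 and 7.52 at 12 weeks, and in cadmium 7.27, 7.78 and 8.64, then 7.46, 8.16 and 7.31, then 8.36, 7.42 and 7.92. Neighbouring groups overlapped, and the largest difference in any of the comparisons was 0.58 between 12 and 6 weeks of saline (standard error 0.36, adjusted p = 0.678). With group means removed, Col15a1 and Col18a1 had an r of 0.658 (exact permutation p = 0.049, adjusted 0.063) and a rho of 0.626 (exact permutation p = 0.0347, adjusted 0.0521), and r was 0.598 without the third 1-day saline and first 1-day cadmium arrays.

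Of the fibril-associated genes, which coat fibrils, only Col12a1 and Col14a1 had means above background. Col12a1 ranged from 9.53 in the third 12-week cadmium array to 13.11 in the third 1-day saline array, and its largest difference, between 12 weeks and 1 day of cadmium, was -1.33 (standard error 0.42, adjusted p = 0.199). Col14a1 ranged from 4.12 to 6.26 and was highest in the third 1-day saline and second 1-day cadmium arrays. Col8a2, a short-chain collagen of Descemet's membrane and vessels, stayed between 4.58 and 5.01 over all 18 arrays. Col13a1, a transmembrane collagen, stayed between 4.08 and 4.33. The correlation of Col8a1 with Col8a2 was 0.360 (exact permutation p = 0.396, adjusted 0.446; rho 0.203, exact permutation p = 0.54, adjusted 0.608). That of Col5a1 with Col5a2 was 0.619 (exact permutation p = 0.0195, adjusted 0.044; rho 0.678, exact permutation p = 0.0117, adjusted 0.0319). Without the 2 arrays where the first gene's deviation lay farthest from the median deviation, r was 0.118 for the Col8 pair and 0.476 for the Col5 pair.

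Counted over the family, 5 of 42 genes passed as lower in saline at 6 weeks against 1 day (Col1a1, Col1a2, Col3a1, Col4a2 and Col4a5) and 0 of 42 as higher. That is 11.9% of the members, where 0.462% of all genes passed as lower and 0.0407% as higher. Groups did not overlap for 13 members in the lower direction and for 5 in the higher, against 10.1% and 7.56% of all genes. In saline at 12 weeks against 1 day, 5 of 42 genes passed as lower (Col1a1, Col1a2, Col3a1, Col4a5 and Col6a2), where 0.258% of all genes did, and 0 of 42 as higher, where 0.0317% did. Groups did not overlap for 13 members in the lower direction and 0 in the higher, against 7.14% and 5.76% of all genes. The median difference over all 42 was near 0, at 0.01 and -0.02, and over the 24 genes above background it was -0.54 and -0.45, beside -0.05 and -0.00 for all genes above background.

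These counts depend on single arrays. Without the first or the third 6-week saline array no collagen gene passed at 6 weeks, without the second 2 passed, and without the third 1-day array 3 passed. At 12 weeks no gene passed without the second or the third 12-week array, 3 passed without the first 12-week array or without the third 1-day array, and 4 passed without the first or the second 1-day array. With only the 6 arrays of the groups compared, none passed in either comparison.

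In cadmium at 6 weeks against 1 day, 2 of 42 genes passed as lower (Col4a2 and Col4a5), where 0.0860% of all genes did, and 0 as higher, where 0.0181% did. Groups did not overlap for 16 members in the lower direction and 1 in the higher, against 5.56% and 5.70% of all genes. The count called was 0 with the replicate number as a block. Without the first 1-day cadmium array 1 gene passed, and without any other array of these groups none did. At 12 weeks against 1 day of cadmium, 4 of 42 passed as lower (Col1a1, Col1a2, Col3a1 and Col6a3), where 0.213% of all genes did, and 1 of 42, Col6a6, as higher, where 0.607% did. Groups did not overlap for 17 members in the lower direction and 2 in the higher, against 6.83% and 7.65% of all genes. Over the 24 genes above background the median differences were -0.48 at 6 weeks and -0.50 at 12 weeks, beside 0.01 and -0.03 for all genes above background. Without the second 1-day cadmium array 2 collagen genes passed at 12 weeks, and 3 passed without the first 1-day array or without any of the 12-week arrays. With only the 6 arrays compared none passed.

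Between 6 and 12 weeks no collagen gene passed by limma in either treatment. In saline, where 0% of all genes passed, 1 member was higher and 3 were lower at an unadjusted p under 0.05, beside 1018 higher and 837 lower of all 22089 genes, and groups did not overlap for 2 members in each direction, against 7.07% of all genes higher and 7.56% lower. In cadmium, where 0.186% of all genes passed as higher and 0.0136% as lower, 2 members were higher and 1 was lower at that level, beside 1064 and 1077 of all genes. There, groups did not overlap for 11 members in the higher direction and 5 in the lower, against 8.37% and 8.45% of all genes. Among the 24 members above background these numbered 4 higher and 5 lower, so most of the higher ones were dim. Of all 14078 genes above background, 1119 were higher and 1580 lower in this way.

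All 6 arrays of 1 day lay above all 12 later arrays for 10 of 42 members, where 0.421% of all genes had this order. The 10 were Col1a1, Col1a2, Col3a1, Col5a1, Col5a2, Col11a1, Col4a5, Col6a2, Col6a3 and Col15a1. The opposite order held for 0 of 42 members and for 0.0905% of all genes. The genes of type I and type III collagen and both type V genes above background were in this set, while Col4a1 to Col4a4, Col18a1 and Col6a6 were not.

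**Figure D4:**
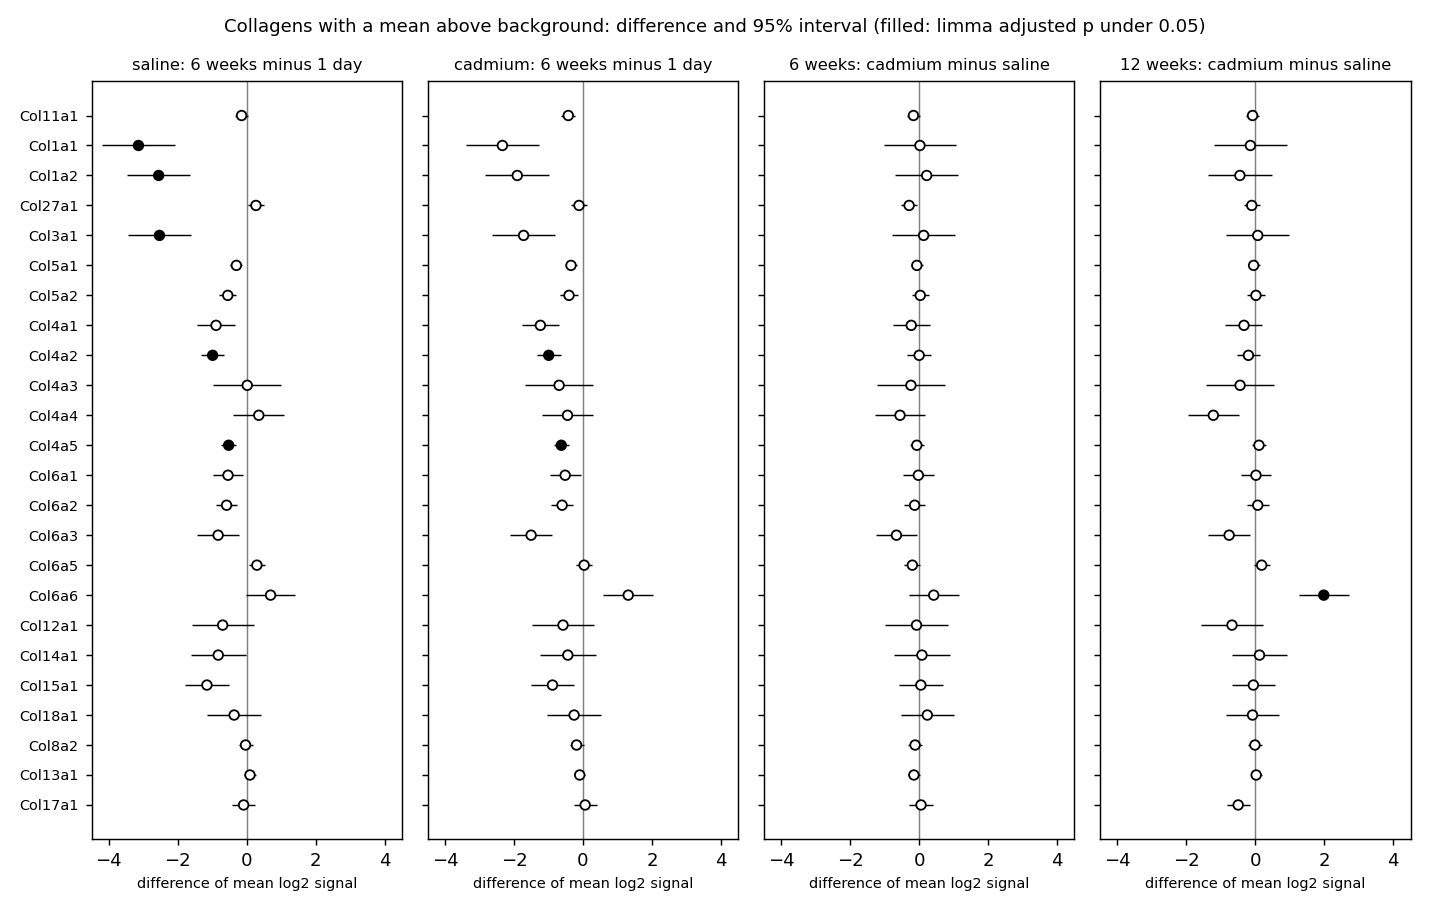
Log2 differences (x axis) of the collagen genes with a mean above background, one line per gene, in 4 panels for 6 weeks minus 1 day of saline, 6 weeks minus 1 day of cadmium, and cadmium minus saline at 6 and at 12 weeks, with 95% intervals from limma as bars and filled points for differences that passed the test. Col1a1 lies at -3.14 in the saline comparison of 6 weeks with 1 day, and Col6a6 at 1.99 in cadmium minus saline at 12 weeks.

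Marker levels of collagen-making and other cells are given beside the fibrillar genes. The mean of 8 fibroblast and pericyte markers was 7.90 to 8.89 in 1-day saline arrays, 7.48 to 7.70 at 6 weeks and 7.60 to 7.83 at 12 weeks, and 0 of the 8 passed the test in either comparison. In cadmium arrays it was 8.07 to 8.31, 7.81 to 7.91 and 7.16 to 7.62. The mean of 5 smooth muscle markers was 8.19 to 9.83 at 1 day of saline, 7.52 to 8.23 at 6 weeks and 7.77 to 8.48 at 12 weeks, and in cadmium 7.81 to 9.52, 7.76 to 8.22 and 7.64 to 7.98. These ranges overlapped in part, and 0 of the 5 passed in any comparison between times. The mean of 5 urothelium markers was 3.84 to 5.10 in 1-day saline arrays, highest in replicate 3, and 3.81 to 4.12 and 3.83 to 3.93 at 6 and 12 weeks. In cadmium arrays it was 4.23 to 4.79 at 1 day, above the later ranges of 3.78 to 4.22 and 3.88 to 4.03. Of the 5, 4 had lower arrays without overlap at 12 weeks against 1 day, against 6.83% of all genes. None of the 5 passed, and Upk3a and Krt20 were below background. The mean of 10 endothelium markers was 10.50 to 10.86 in cadmium at 1 day and 9.22 to 10.31 at 12 weeks, with a median difference of -0.95. Of the 10, 2 passed as lower, Cdh5 and Tie1, where 0.213% of all genes did. In saline their mean was 10.35 to 10.97 at 1 day and 9.92 to 10.63 at 12 weeks. The median difference there was -0.69, with 4 of the 10 higher, and none passed. Among the fibroblast and smooth muscle markers only Gli1 had a mean at or below background. In whole kidney, fewer cells of a type and less RNA per cell cannot be told apart, and the part of these markers in the collagen differences was not tested.

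The genes that build, process and bind collagen were read from lists of the same fit. Of 28 genes of collagen synthesis and cross-linking, 3 passed as lower in saline at 6 weeks against 1 day, where 0.462% of all genes did, with a median of -0.27, beside 0.00 for all genes. Of 16 basement membrane partners, 3 passed as lower, with a median of -0.74, and of 11 fibril-binding matrix genes 2 passed as lower, with a median of -1.39. Sparc is in both of these lists and counts in each. The smallest p-values belonged to Lamc1, a laminin chain of nearly all basement membranes (-1.11, standard error 0.18, adjusted p = 0.0148), Loxl2, a collagen cross-linking oxidase (-1.73, standard error 0.31, adjusted p = 0.024), and Sparc, a collagen-binding matrix protein (-1.84, standard error 0.34, adjusted p = 0.028). At 12 weeks of saline, 2 of the 28 synthesis genes, 2 of the 16 partners and 1 of the 11 fibril-binding genes passed as lower, where 0.258% of all genes did. Among them were Sparc (-2.03, standard error 0.34, adjusted p = 0.0239), Bmp1, which trims procollagen (-0.74, standard error 0.13, adjusted p = 0.027), and Loxl2 (-1.79, standard error 0.31, adjusted p = 0.027). No gene of these lists passed as higher in either comparison.

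In cadmium, 1 synthesis gene passed as lower at 6 weeks against 1 day, where 0.0860% of all genes did: Serpinh1, the collagen chaperone (-1.29, standard error 0.22, adjusted p = 0.0358). At 12 weeks against 1 day, 2 of the 28 synthesis genes, 3 of the 16 basement membrane partners and 2 of the 11 fibril-binding genes passed as lower. Among them, Sparc fell by 2.34 (standard error 0.34, adjusted p = 0.00605) and Loxl2 by 1.64 (standard error 0.31, adjusted p = 0.0249). At that time 0.213% of all genes passed as lower. Cdh5, the cadherin of endothelium and one of its markers, fell by 1.33 (standard error 0.25, adjusted p = 0.0218). Among 10 collagen receptors and uptake genes 1 passed as lower at 6 weeks of saline against 1 day, where 0.462% of all genes did. None passed in the other comparisons between times. Of 14 genes of TGF-beta signalling, the main inducer of fibrillar collagen, none passed by limma in any comparison. At an unadjusted p under 0.05, 0 to 4 were lower and 0 to 1 higher. Of all 22089 genes, 237 to 1645 were lower and 196 to 1263 higher at that level, depending on the comparison.

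**Figure D5:**
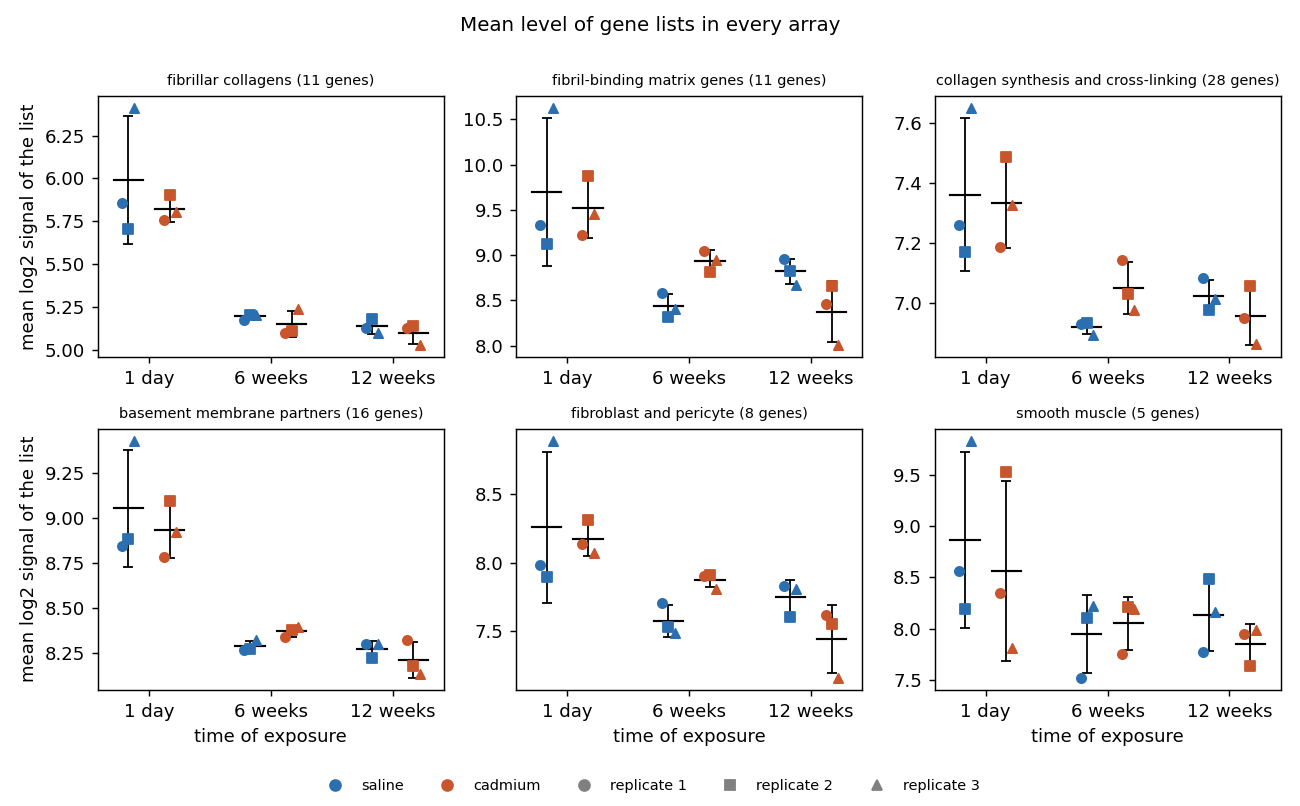
Mean log2 signal (y axis) of fibrillar collagens, fibril-binding matrix genes, collagen synthesis and cross-linking genes, basement membrane partners, and fibroblast and smooth muscle markers in each of the 18 arrays by time of exposure (x axis), saline in blue and cadmium in orange, with replicates as separate symbols and group mean and SD as bars. The third 1-day saline array is the highest of all arrays in each panel, at 8.89 for the fibroblast and pericyte markers.

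The comparison of cadmium with saline at each time asked whether collagen genes changed with exposure. At 1 day, 0 of 42 members passed by limma, 0 had an unadjusted p under 0.05 and 0 had groups that did not overlap, where 0% of all genes passed, and 2.35% and 2.88% had groups that did not overlap as higher and as lower. The largest differences were those of Col1a1 at -0.78 (95% interval -1.83 to 0.27) and Col3a1 at -0.68 (95% interval -1.59 to 0.24). Both rested on the third 1-day saline array, without which they were 0.02 and 0.06. Col4a3 was higher by 0.47 (adjusted p = 1) and Col11a1 by 0.11 (adjusted p = 1), with overlapping groups. The dim genes Col19a1 and Col28a1 differed by 0.07 and -0.10. For Col19a1 the 1-day arrays read 3.98, 3.92 and 3.82 in saline and 3.92, 3.89 and 4.11 in cadmium, and for Col28a1 3.55, 3.66 and 3.55 in saline and 3.43, 3.38 and 3.65 in cadmium.

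At 6 weeks, 0 of 42 members passed by limma, 4 had an unadjusted p under 0.05 and all 4 were lower. Of all 22089 genes, 0.0362% passed as higher and 0.00453% as lower, and 1244 were higher and 939 lower at an unadjusted p under 0.05. With array weights 1 member, Col10a1, passed as lower, where 499 of all 22089 genes passed, 318 of them as higher. Groups did not overlap in the lower direction for 8 members, or 19.0%, against 8.04% of all genes, and in the higher direction for 0 members against 10.5%. The 8 were Col6a3, Col27a1, Col13a1, Col8a2 and the dim genes Col9a1, Col10a1, Col25a1 and Col28a1. Col27a1, a fibrillar collagen, read 5.52, 5.49 and 5.77 in saline and 5.23, 5.23 and 5.45 in cadmium (-0.29, standard error 0.11, adjusted p = 0.428). Col10a1, a collagen of growing cartilage, read 3.996, 3.85 and 4.16 in saline and 3.66, 3.77 and 3.76 in cadmium (-0.27, standard error 0.10, adjusted p = 0.396). Col9a1 read 4.32, 4.25 and 4.42 in saline and 4.12, 3.94 and 4.15 in cadmium (-0.25, standard error 0.10, adjusted p = 0.459).

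Of these 8 genes, 4 were dim, and Col6a3 differed by -0.66 (standard error 0.28, adjusted p = 0.479). The median over the 42 members was -0.09, beside -0.00 for all genes and 0.05 for all genes above background, and the third 6-week saline array was the highest of the 18 for 10 members, most of them dim. The highest differences at 6 weeks were those of Col6a6 (0.42, adjusted p = 0.691) and Col18a1 (0.24, adjusted p = 0.85). Col18a1 stood at -0.02 without the second 6-week cadmium array. The dim Col8a1 read 3.98, 4.09 and 4.11 in saline and 4.19, 4.12 and 4.11 in cadmium. The type I and III genes differed by 0.02 (Col1a1, 95% interval -1.03 to 1.07), 0.22 (Col1a2, 95% interval -0.70 to 1.14) and 0.13 (Col3a1, 95% interval -0.78 to 1.05), intervals that do not exclude a change of 1 log2 unit upwards. These intervals use 1 spread per gene pooled over all 6 groups. For Col1a1 the SD was 0.145 in saline and 0.242 in cadmium at 6 weeks, beside 1.421 in saline at 1 day. For Col3a1 these were 0.151, 0.102 and 1.3.

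At 12 weeks, 1 of 42 members passed as higher, where 0.290% of all genes did, and 0 as lower, where 0.0362% did. That gene was Col6a6, with a mean of 9.03 ± 0.40 (SD, n = 3) in cadmium and 7.05 ± 0.55 (SD, n = 3) in saline and no overlap between groups. The difference was 1.99 (standard error 0.34, 95% interval 1.27 to 2.70, adjusted p = 0.0199), beside -0.20 at 1 day and 0.42 at 6 weeks. The test of the change between times did not pass, at 2.19 against 1 day (standard error 0.48, adjusted p = 0.197) and 1.56 against 6 weeks (standard error 0.48, adjusted p = 0.386). Without the third saline array, the first cadmium array or the second cadmium array of 12 weeks, the difference was 1.71, 1.77 and 2.01 and did not pass (adjusted p = 0.116, 0.094 and 0.0777), and with only the 6 arrays of 12 weeks the adjusted p was 0.35.

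Col4a4 had the largest lower value at 12 weeks. It read 8.69, 9.90 and 10.31 in saline and 9.12, 8.03 and 8.10 in cadmium, after 9.35, 9.19 and 9.08 in saline and 9.57, 9.33 and 9.44 in cadmium at 1 day, and 9.70, 9.70 and 9.26 in saline and 8.73, 8.96 and 9.31 in cadmium at 6 weeks. The 12-week groups overlapped through the first array of each, and the difference of -1.22 did not pass (standard error 0.34, adjusted p = 0.238). Without the first 12-week saline array it was -1.69 and passed (adjusted p = 0.0169), which raised the count of members called to 2. The Col4a3 difference was -0.44 (standard error 0.46, adjusted p = 0.829). The mean of the 4 podocyte markers measured here was 8.54 to 10.01 in cadmium and 8.27 to 9.54 in saline arrays of 12 weeks. At 6 weeks, where Col4a4 differed by -0.56 (standard error 0.35, adjusted p = 0.62), it was 8.29 to 8.91 in cadmium and 9.25 to 10.05 in saline. All 4 of these markers had lower cadmium arrays without overlap at 6 weeks, against 8.04% of all genes. Their median difference was -0.97, and none passed the test. Their part in the Col4a4 values was not tested.

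Groups did not overlap at 12 weeks for 3 members in each direction, or 7.14%, against 7.92% of all genes higher and 7.07% lower, shares near the background. The higher ones were Col6a6 and the dim Col5a3 and Col26a1, and the lower ones Col17a1, Col6a3 and Col1a2. Col17a1, a transmembrane collagen of epithelial anchoring, read 4.58, 5.17 and 4.38 in saline and 4.28, 4.20 and 4.16 in cadmium (-0.50, standard error 0.16, adjusted p = 0.314). Col6a3 differed by -0.76 (standard error 0.28, adjusted p = 0.411) and Col1a2 by -0.45 (standard error 0.43, adjusted p = 0.81). Col6a5 read 4.17, 4.63 and 4.47 in saline and 4.70, 4.60 and 4.53 in cadmium (0.18, standard error 0.11, adjusted p = 0.654). The dim Col24a1 read 3.78, 3.99 and 3.77 in saline and 4.13, 3.91 and 4.07 in cadmium (0.19, adjusted p = 0.615).

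The fibrillar genes showed no called difference at 12 weeks. Col1a1 differed by -0.14 (95% interval -1.19 to 0.91) and Col3a1 by 0.07 (95% interval -0.84 to 0.99), so a change of more than 1 log2 unit upwards lay outside both intervals. A fall of 1 log2 unit lay within the interval of Col1a1. Both intervals use the spread pooled over all 6 groups. The SD of Col1a1 at 12 weeks was 0.187 in saline and 0.07 in cadmium, beside 1.421 in saline at 1 day. Col1a2 differed by -0.45, with all cadmium arrays below all saline arrays. The basement membrane chains Col4a1 and Col4a2 differed by -0.33 (95% interval -0.87 to 0.21) and -0.20 (95% interval -0.54 to 0.14). Over the 11 fibrillar genes the median was -0.00, over the 5 type IV genes -0.33 and over the 6 type VI genes 0.04, beside 0.01 for all genes.

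None of the genes of collagen synthesis, binding, uptake or TGF-beta signalling passed by limma in cadmium minus saline at any time. At an unadjusted p under 0.05, all genes numbered 196 higher and 237 lower at 1 day, 1244 higher and 939 lower at 6 weeks, and 1015 higher and 979 lower at 12 weeks, out of 22089. By the same measure, 1 of 28 synthesis genes was higher at 1 day, 2 at 6 weeks and none at 12 weeks, and 2 of 16 basement membrane partners were higher at 12 weeks. Of 11 fibril-binding matrix genes, 2 were higher at 6 weeks, with a list median of 0.47, and 1 was lower at 12 weeks. Of 14 genes of TGF-beta signalling, 1 was higher at 6 weeks and 2 were lower at 12 weeks, and of 10 receptors and uptake genes 1 was lower at 12 weeks. The fibroblast and pericyte marker mean at 12 weeks was 7.16 to 7.62 in cadmium and 7.60 to 7.83 in saline arrays. The proximal tubule marker mean ranged from 13.99 to 16.62 in cadmium and from 14.94 to 17.12 in saline. With the proximal tubule mean of each array as a covariate, the Col6a6 difference was 2.06 (adjusted p = 0.0233). The tests of whether a cadmium difference changed between times called 0 of 42 members by limma in each of the 3 comparisons, where 0.00905% (6 weeks against 1 day), 0.0317% (12 weeks against 1 day) and 0.0136% (12 weeks against 6 weeks) of all genes passed as higher and 0% as lower. At an unadjusted p under 0.05, members numbered 0 higher and 1 lower, 1 higher and 1 lower, and 4 higher and 1 lower in these comparisons. The counts over all 22089 genes were 884 higher and 589 lower, 636 higher and 410 lower, and 1018 higher and 1196 lower.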

How the data were processed

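The authors deposited log2 signals of 18 Affymetrix arrays from biotin-labelled cRNA of total kidney RNA, per the labels' protocols. Their summarization and normalization are not given in the sources used here, and 9 arrays share a ceiling of 19.93. Of 70570 transcript clusters, 23447 had 1 gene symbol in the platform annotation, 495 had several and 46628 had none. The brightest cluster naming only a gene stood for it. Differences were fitted with limma 3.58.1 (R 4.3.3) on 6 group means (12 residual degrees of freedom), with Benjamini-Hochberg adjustment over 22089 genes and checked on simulated data. Correlations used exact permutation within groups (46656 orders, scipy 1.17.1). Array number (3 per group) limits precision. Each array value was given for the main type I, III, IV, VI and multiplexin genes, called genes, and the 3 smallest p-values in each direction per cadmium comparison. For non-members, up to 3 called genes per comparison were named. Members and lists were chosen with earlier results of these data known. Promoter sequences are RefSeq's (GRCr8), which held windows for 33 members. Same-numbered arrays of the same time had correlations of their deviations from -0.469 to 0.433, with 2 of 9 above 0.1, so numbers were not taken as pairs. Alternatives were median centring, quantile normalization, the mean of all clusters of a gene, genes above background only, array weights, a robust trend, only the arrays compared, the replicate block, the proximal tubule level as a covariate and each array left out.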

Additional observations from a re-analysis of the deposited data

How the results depend on the processing

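With array weights, the counts of collagen genes called were 1 (cadmium minus saline at 6 weeks), 2 (at 12 weeks), 9 (saline, 6 weeks minus 1 day), 8 (cadmium, 6 weeks minus 1 day) and 8 (cadmium, 12 weeks minus 1 day). Over all 22089 genes the counts with array weights were 499, 127, 341, 66 and 415 in the same comparisons. With only the arrays compared, the count of collagen genes was 0 in cadmium minus saline at 12 weeks and in each comparison of a later time with 1 day. With quantile normalization it was 3 in saline and 8 in cadmium for 12 weeks minus 1 day, beside 53 and 258 of all genes. With the replicate block it was 2 in saline at 12 weeks minus 1 day, and in cadmium 0 at 6 weeks and 3 at 12 weeks, beside 30, 4 and 109 of all genes. The block changed no other count by over 1.5 times. Leaving out 1 array gave 0 to 2 for cadmium minus saline at 12 weeks, 0 to 5 and 0 to 4 for saline at 6 and 12 weeks minus 1 day, and 0 to 1 and 2 to 5 for cadmium. Some cadmium minus saline differences changed sign when 1 array was left out: Col1a1 ranged from -1.34 to 0.018 and Col3a1 from -1.16 to 0.060 at 1 day (highest without saline replicate 3), and Col18a1 from -0.019 to 0.40 at 6 weeks (lowest without cadmium replicate 2). The correlation of Col5a1 with Col5a2 was 0.426 (exact permutation, adjusted p = 0.0828) with each array centred, and that of Col8a1 with Col8a2 was 0.118 without 2 arrays. Fits with 1 array left out or with only the arrays compared hold fewer samples. The causes of the other shifts were not tested. Groups of 3 arrays, and 18 genes near background, limit what could be seen.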

Other observations

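Col7a1, the anchoring fibril collagen of skin, was named only by a cluster that also names Mir711, and its 18 arrays lay between 4.04 and 4.32, near background. Col4a6 and Col21a1 were not measured by a cluster of their own and were not analysed here. For the genes with a dimmer cluster beside the one used, that cluster followed it over the 18 arrays with a Pearson r of 1.000 for Col1a2, 0.997 for Col15a1, 0.902 for Col23a1 and 0.876 for Col12a1, given as a description. The dimmer Col1a2 cluster differed by -2.47 between 6 weeks and 1 day of saline and by -2.50 between 12 weeks and 1 day.

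The macrophage marker mean was 6.87 to 7.61 in cadmium and 6.18 to 6.51 in saline arrays of 6 weeks, where no collagen gene was called. The endothelial marker mean was 9.22 to 10.31 in cadmium and 9.92 to 10.63 in saline arrays of 12 weeks.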
